A study of Mus musculus with 22 samples.

Results

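The genes described here are 10 genes of antigen presentation, 5 of the MHC class I pathway (H2-K1, H2-D1, B2m, Tap1 and Nlrc5) and 5 of the MHC class II pathway (H2-Aa, H2-Ab1, H2-Eb1, Cd74 and Ciita). They were chosen by name from what the pathways are known to contain, out of 47311 genes to which the transcripts of the 22 libraries could be assigned, and the estimated counts and the abundances in TPM (transcripts relative to transcript length and library total) of all transcripts of a gene were summed. The libraries came from sorted bone marrow cells of C57BL/6 mice: long-term hematopoietic stem cells (LT-HSC), common myeloid progenitors (CMP), granulocyte-monocyte progenitors (GMP) and megakaryocyte-erythroid progenitors (MEP). The study compared mice lacking Arid1a, a subunit of the SWI/SNF chromatin remodeling complex, with wild type (WT) mice. All mice carried the floxed allele Arid1a f/f, with loxP sites around exon 9 of the gene, after 5 generations of backcross to C57BL/6. The knockout (KO) mice also carried Mx1-Cre, a transgene whose promoter is itself switched on by interferon and so acts in many tissues besides blood, and the WT mice were Mx1-Cre- littermates. Mice of 8 to 14 weeks received 5 doses of poly(I:C), a synthetic double-stranded RNA that induces interferon, and cells were taken 4 weeks later. Both genotypes received poly(I:C), and no library came from mice without it. WT mice 300, 305 and 309 and KO mice 301, 304 and 308 each gave a CMP, a GMP and an MEP library, and WT mice S245 and S269 and KO mice S244 and S270 each gave an LT-HSC library. The LT-HSC libraries were made with an amplifying low-input kit and the others with a poly-A kit, so levels in LT-HSC and in the precursors are set side by side without a test.

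Class I molecules sit on nearly all nucleated cells and show peptides from the cell's own proteins to cytotoxic T cells. A heavy chain (H2-K1 or H2-D1) pairs with the light chain beta-2 microglobulin (B2m), Tap1 is a subunit of the transporter that brings peptides into the endoplasmic reticulum, and Nlrc5 is the coactivator of class I promoters. Class II molecules show peptides from the endosomes to helper T cells and are typical of dendritic cells, B cells and macrophages. H2-Aa is the alpha chain and H2-Ab1 the beta chain of the I-A molecule, H2-Eb1 is the beta chain of I-E, Cd74 is the invariant chain that escorts them, and Ciita is the master coactivator of class II promoters. The promoters of both classes hold X and Y boxes, which are bound by the RFX and NF-Y complexes. Interferon raises many of these genes. On GRCm38 the class II chain genes are neighbours on chromosome 17, H2-Ab1 at chr17:34257689-34269419, H2-Aa at chr17:34282744-34287823 and H2-Eb1 at chr17:34305867-34316674, with Tap1 beside them at chr17:34187553-34197225. H2-K1 (chr17:33996017-34000347) and H2-D1 (chr17:35262730-35267499) lie on either side of them. B2m is on chromosome 2, Nlrc5 on chromosome 8 and Ciita on chromosome 16.

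The promoters of members that moved together (H2-Aa and H2-Eb1) and of class I members that moved less (H2-K1, H2-D1 and B2m) are shown so that their shared letters can be seen. RefSeq windows on GRCm38.p6 were matched by symbol for 6 of the 10 members, and the windows of Nlrc5, H2-Ab1, Cd74 and Ciita are named only. Each run below holds the 250 bases before the start site, 5′ to 3′ on the gene's strand, with matches to any motif searched in capitals. H2-Aa was read from chr17:34287824-34288073 (minus strand), H2-Eb1 from chr17:34305617-34305866 (plus strand), H2-K1 from chr17:34000334-34000583 (minus strand), H2-D1 from chr17:35262844-35263093 (plus strand) and B2m from chr2:122147437-122147686 (plus strand).
H2-Aa: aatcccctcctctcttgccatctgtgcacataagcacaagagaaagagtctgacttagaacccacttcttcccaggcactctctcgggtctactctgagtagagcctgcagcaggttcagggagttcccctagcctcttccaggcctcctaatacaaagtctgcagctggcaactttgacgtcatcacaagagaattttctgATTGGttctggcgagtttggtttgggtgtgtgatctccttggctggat
H2-Eb1: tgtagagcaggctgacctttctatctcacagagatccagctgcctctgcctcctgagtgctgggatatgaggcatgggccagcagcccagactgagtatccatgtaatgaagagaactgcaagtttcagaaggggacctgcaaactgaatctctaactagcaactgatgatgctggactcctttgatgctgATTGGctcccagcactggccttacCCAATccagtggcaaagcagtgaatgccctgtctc
H2-K1: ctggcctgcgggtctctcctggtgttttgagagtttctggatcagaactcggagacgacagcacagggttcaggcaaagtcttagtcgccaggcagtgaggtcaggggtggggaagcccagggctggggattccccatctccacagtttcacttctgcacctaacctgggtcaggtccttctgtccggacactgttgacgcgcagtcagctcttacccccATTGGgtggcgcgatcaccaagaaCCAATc
H2-D1: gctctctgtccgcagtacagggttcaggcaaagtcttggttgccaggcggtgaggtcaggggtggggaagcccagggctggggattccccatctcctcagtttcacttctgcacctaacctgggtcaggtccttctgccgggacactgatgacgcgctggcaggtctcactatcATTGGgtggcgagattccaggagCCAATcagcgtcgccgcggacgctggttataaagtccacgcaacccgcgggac
B2m: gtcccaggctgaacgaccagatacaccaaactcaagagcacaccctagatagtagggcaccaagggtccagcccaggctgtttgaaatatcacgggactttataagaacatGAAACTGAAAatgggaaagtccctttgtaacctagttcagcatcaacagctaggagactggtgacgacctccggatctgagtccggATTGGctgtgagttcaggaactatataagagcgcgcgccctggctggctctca

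The windows searched run 50 bases past the start site and so hold 300 bases. Both strands were searched for 4 motifs: the Y box core ATTGG, the X box core CCNAGNAAC, the core of the interferon-stimulated response element (TTTC, any 2 bases, TTTC) and the core of the interferon gamma activated site TTCNNNGAA. The Y box core stood in the windows of all 6 members that had one, among them Tap1, against 37.4% of 32851 promoter windows. It began 48 bases before the start site of H2-Aa, 59 before that of H2-Eb1, 76 before that of H2-D1 and 53 before that of B2m. The interferon-stimulated core was found in B2m alone, as GAAACTGAAA on the other strand, against 3.44% of all windows, and no matches overlapped. Neither the X box core (5.27% of all windows) nor the gamma activated core (8.3%) was found in the 6 windows. These are exact matches of letters and do not show binding. Sites that differ from a pattern in any letter were not counted, so a motif not found is not shown to be absent. H2-K1 and H2-D1 shared a run of 47 identical bases, whereas no other pair of the 6 windows shared more than 10.

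Likeness between genes also bears on how their reads were assigned. Of the stretches of 31 bases in the main transcript of each gene, the unit in which the aligner compares sequences, 23.3% of those of H2-K1 and 27.7% of those of H2-D1 also occurred in transcripts of other genes. H2-K1 shared most with H2-D1 (16.9% of its stretches). Tap1 shared 7.73%, mostly with its neighbour Psmb9. The class II members were nearly free of this, with 0% for H2-Aa and at most 2.01% among the rest, and B2m and Nlrc5 shared none. Values of H2-K1 and H2-D1 are therefore uncertain to the extent that reads were split between copies. The sum of all class I heavy chain genes is given for KO against WT in each precursor and for WT GMP against WT CMP.

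The libraries held 40804031 to 65930737 estimated counts. The LT-HSC library of WT mouse S245 stood apart: it had the lowest total, yet 27191 genes reached 10 counts in it, against 18504 to 22407 in the other 3 LT-HSC libraries. Sorted populations carried their own markers: 10 erythroid genes summed to 5957 to 8182 TPM in MEP and to 134 to 181 TPM in GMP, but also to 4523 to 6646 TPM in LT-HSC. Neutrophil genes (10) summed to 30143 to 45776 TPM in GMP, and stem cell genes (10) to 946 to 1593 TPM in LT-HSC against at most 306 TPM in the precursors. Arid1a itself was at 29.9 and 23.7 TPM in WT and 10.9 and 10.7 TPM in KO LT-HSC. In the precursors the gene's total was only slightly lower in KO, by 0.22 ± 0.06 (SE) on the log2 scale for CMP, 0.40 ± 0.11 for GMP and 0.14 ± 0.05 for MEP, and TPM of KO and WT overlapped in CMP and MEP. A total over the gene does not read the single deleted exon. RNA from a whole sorted population cannot tell fewer cells of a kind from less RNA in each cell.

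**Figure D1:**
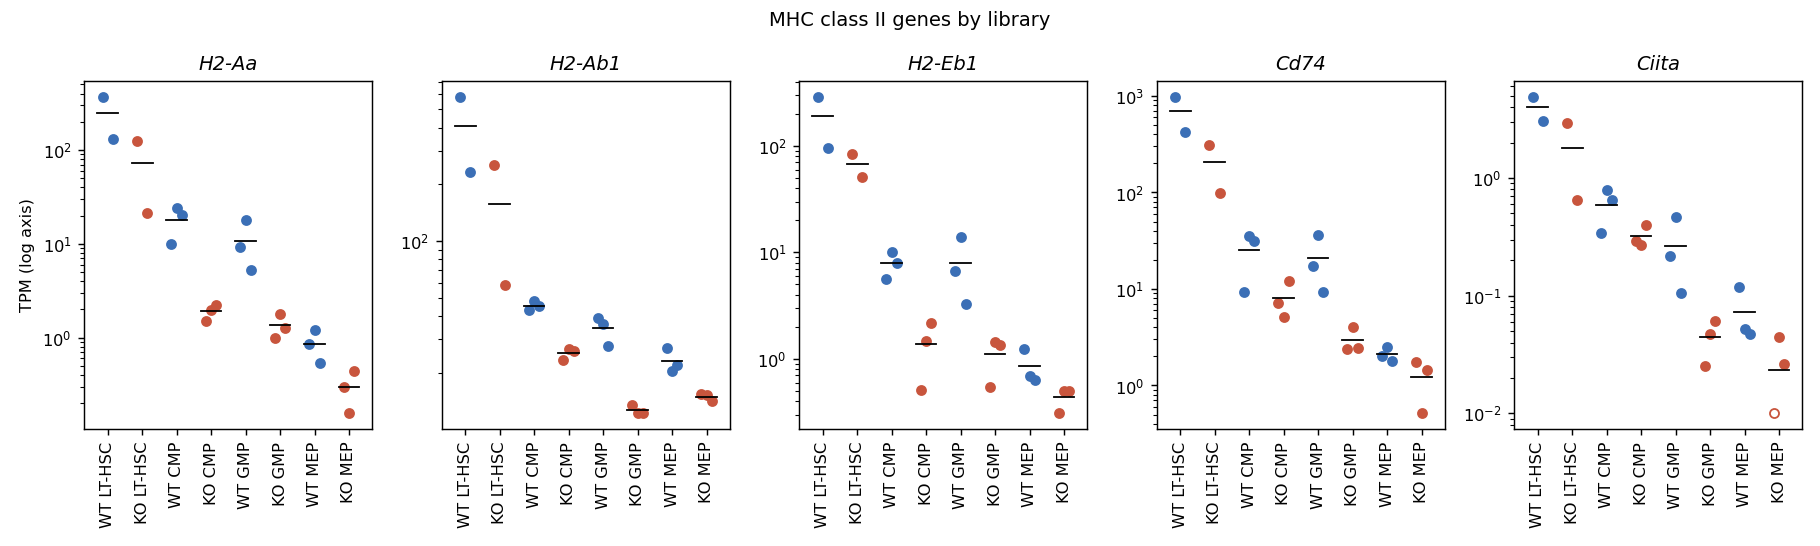
TPM of the 5 class II genes (log axis, separate for each gene) in each library, by genotype (WT blue, KO red) and population. Points are libraries and bars are group means; the open point for Ciita marks a library at 0, drawn at 0.01. Among WT libraries LT-HSC stand highest and CMP and GMP lie above MEP but for 1 library of Ciita, and KO libraries lie below WT libraries in each precursor but for Cd74 and Ciita in CMP, where they overlap.

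Side by side in WT mice, class II transcripts were most abundant in LT-HSC, lower in CMP and GMP and lowest in MEP. Summed over the 5 genes, they came to 2222 TPM (mouse S245) and 890 TPM (mouse S269) in WT LT-HSC, 68.3 to 118 TPM in CMP, 45.7 to 104 TPM in GMP and 25.0 to 31.2 TPM in MEP. H2-Aa showed the steepest step, at 9.91, 23.9 and 20.2 TPM in CMP, 9.15, 18 and 5.29 TPM in GMP and 0.855, 1.2 and 0.538 TPM in MEP (mice 300, 305 and 309). Every WT MEP library thus lay below every WT CMP and GMP library, and WT CMP and GMP overlapped. All 5 class II genes were lower in WT MEP than in WT CMP (adjusted p under 0.1 with edgeR's quasi-likelihood test and the mouse as a block), where 38% of the 17476 genes tested were lower. The differences were 4.03 ± 0.39 for H2-Aa, 3.18 ± 0.48 for Cd74, 2.85 ± 0.44 for H2-Eb1, 2.60 ± 0.56 for Ciita and only 0.64 ± 0.12 for H2-Ab1 on the log2 scale. All 5 were also higher in WT GMP than in WT MEP, where 36.5% of genes were, from 0.42 ± 0.12 (H2-Ab1) to 3.38 ± 0.39 (H2-Aa), although Ciita lost this without mouse 305 (0.81, adjusted p = 0.286). CMP and GMP are neighbours in this order, their WT libraries overlapped for each class II gene and none was called: the log2 differences of GMP over CMP ran from -1.13 ± 0.49 for Ciita (unadjusted p = 0.0492, adjusted p = 0.107) to 0.01 ± 0.38 for H2-Eb1 (adjusted p = 0.981). That the threshold was missed does not show equal levels, since the approximate 95% intervals for H2-Aa (-1.26 to -0.04) and Ciita (-2.09 to -0.16) reached far below 0. For H2-Aa the quasi-likelihood test itself gave an unadjusted p of 0.0671. Its approximate interval is thus too narrow to place the difference below 0. Scaling to library totals alone called 3 class II genes lower in GMP, along with a median of all genes of -0.15. The number called also changed without the filter on low counts, with DESeq2 and with a mouse left out, so it depends on the settings. The comparisons of GMP and of MEP with CMP share the WT CMP libraries.

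H2-Ab1 behaved unlike its partner chain. Its level in WT MEP (27.0, 20.5 and 22.1 TPM) was 17.2 to 41 times that of H2-Aa in the same libraries, whereas the ratio was 2.01 to 4.34 in WT CMP, 2.02 to 5.27 in WT GMP and 1.58 and 1.75 in WT LT-HSC. Both values are per transcript length. H2-Ab1 shared 0.592% of its 31-base stretches with other transcripts, all with H2-Eb1.

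**Figure D2:**
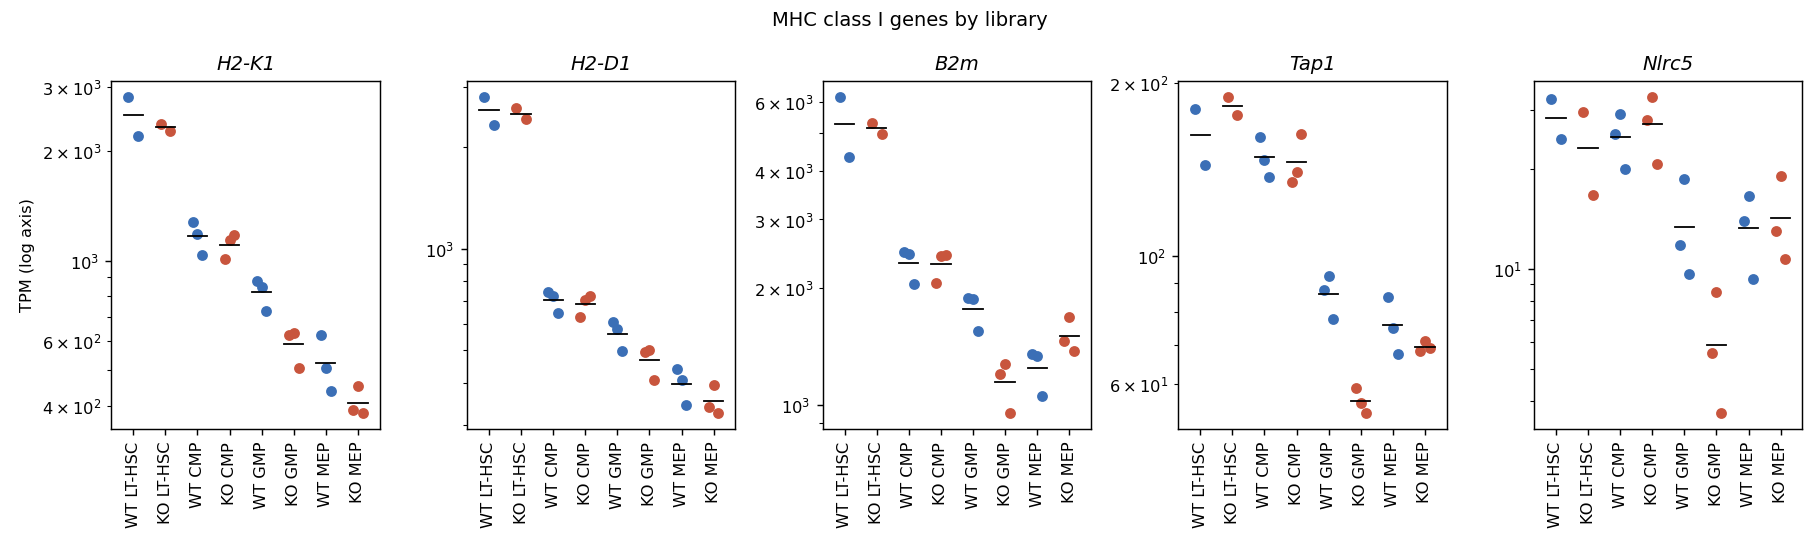
TPM of the 5 class I genes (log axis, separate for each gene) in each library, by genotype (WT blue, KO red) and population. Points are libraries and bars are group means. H2-K1, H2-D1 and B2m step down from LT-HSC to CMP and on to GMP and MEP in WT, and the KO and WT libraries overlap in CMP for each gene.

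Class I transcripts were far more abundant than class II transcripts in every library. Summed over the 5 class I genes they came to 12036 and 9036 TPM in WT LT-HSC, 3885 to 4675 TPM in WT CMP, 2859 to 3470 TPM in WT GMP and 1917 to 2515 TPM in WT MEP. B2m was the most abundant member, at 6201 and 4355 TPM in WT LT-HSC, 2471, 2451 and 2045 TPM in WT CMP, 1886, 1870 and 1547 TPM in WT GMP and 1352, 1335 and 1056 TPM in WT MEP. All 5 class I genes were lower in WT MEP than in WT CMP, by 0.55 ± 0.06 (H2-D1) to 0.85 ± 0.06 (H2-K1) on the log2 scale, where 38% of genes were lower. In WT GMP 4 of 5 were lower than in WT CMP, where 24.2% of genes were: Nlrc5 by 0.83 ± 0.12, Tap1 by 0.65 ± 0.07, H2-K1 by 0.34 ± 0.06 and B2m by 0.23 ± 0.05. H2-D1 fell short of the threshold (-0.13 ± 0.06, adjusted p = 0.103). All class I heavy chain genes summed gave -0.51 ± 0.06 for WT GMP over WT CMP (adjusted p = 0.000284). H2-K1, H2-D1 and B2m were higher in WT GMP than in WT MEP, by 0.52 ± 0.06, 0.42 ± 0.06 and 0.34 ± 0.05, where 36.5% of genes were higher. Tap1 and Nlrc5 were not called between GMP and MEP (0.03 ± 0.07 and -0.13 ± 0.12), with 95% intervals that end at 0.16 and 0.10. The order CMP, GMP, MEP thus held at each step for H2-K1 and B2m, while Tap1 and Nlrc5 were higher in CMP than in either of the others.

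Loss of Arid1a was accompanied by lower class II transcripts in CMP. Mice 300, 305 and 309 had 9.91, 23.9 and 20.2 TPM of H2-Aa in CMP, and KO mice 301, 304 and 308 had 1.49, 1.98 and 2.25 TPM. The groups did not overlap, and H2-Aa fell by 3.34 ± 0.35 on the log2 scale, or 10.1-fold (adjusted p = 0.000353). For its partner H2-Ab1 the levels were 43.0, 48.0 and 45 TPM in WT and 23.4, 26.8 and 26.1 TPM in KO CMP. These groups were again apart, yet the fall was 1.91-fold (log2 fold change -0.94 ± 0.09, adjusted p = 0.000309). H2-Eb1, at 5.65, 10.2 and 7.90 TPM in WT and 0.514, 1.49 and 2.18 TPM in KO CMP, fell 5.99-fold (-2.58 ± 0.44, adjusted p = 0.00411). Cd74 was at 9.37, 35.6 and 31.8 TPM in WT and 7.13, 5.17 and 12.1 TPM in KO, so that KO mouse 308 exceeded WT mouse 300, and Ciita was at 0.338, 0.796 and 0.645 TPM in WT and 0.292, 0.27 and 0.396 TPM in KO. Their falls were 3.38-fold (adjusted p = 0.0362) and 1.99-fold (adjusted p = 0.0783). All 5 class II genes were thus lower in KO CMP, where 12.8% of the 17214 genes tested were lower and 10.6% higher. The class II median was -1.76 against -0.00 for all genes on the log2 scale. Cd74 was not called without KO mouse 301 (adjusted p = 0.136), WT mouse 305 (0.112) or WT mouse 309 (0.112), nor was Ciita without any of these 3 or without KO mouse 304 (adjusted p from 0.183 to 0.223), so the number of class II genes called was 3 to 5.

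In GMP all 5 class II genes fell, and their WT and KO libraries did not overlap. H2-Aa was at 9.15, 18 and 5.29 TPM in WT GMP and 1.001, 1.79 and 1.26 TPM in KO GMP, and fell 7.04-fold (-2.82 ± 0.43, adjusted p = 0.0013). Cd74 was at 17.2, 36.0 and 9.21 TPM in WT and 2.38, 4.05 and 2.47 TPM in KO, and fell 6.26-fold (-2.65 ± 0.46, adjusted p = 0.00252). The lowest WT library, from mouse 309, still held more of each transcript than the highest KO library. H2-Eb1 fell 6.31-fold (-2.66 ± 0.53), from 6.74, 13.9 and 3.24 TPM in WT to 0.549, 1.43 and 1.34 TPM in KO. H2-Ab1 fell 2.43-fold (-1.28 ± 0.11), from 39.2, 36.3 and 27.9 TPM to 13.4, 12.2 and 12.2 TPM. Ciita, the coactivator, fell 5.17-fold (-2.37 ± 0.58, adjusted p = 0.0153) at a very low level, with 48, 85.8 and 21.2 estimated counts in WT and 5.11, 9.85 and 13 in KO. The 5 calls stood against 16.3% of the 16383 genes tested that were lower and 17.5% that were higher, and their median was -2.65 against -0.01 for all genes. Each of these 5 calls held without any single library.

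Class II transcripts were scarce in MEP, where 2 genes were called. H2-Aa was at 0.855, 1.2 and 0.538 TPM in WT and 0.298, 0.156 and 0.443 TPM in KO MEP, a 3.22-fold fall (-1.68 ± 0.46, adjusted p = 0.0344) that rested on 17 to 38 estimated counts in WT and 5 to 16 in KO. H2-Ab1 fell 1.58-fold (-0.66 ± 0.11, adjusted p = 0.0046), from 27.0, 20.5 and 22.1 TPM to 15.4, 15.2 and 14.2 TPM. These 2 passed the threshold of 4 tested, where 15.4% of the 15777 genes tested were lower and 14% higher. H2-Eb1 (-0.98 ± 0.38, adjusted p = 0.105) and Cd74 (-0.76 ± 0.42, adjusted p = 0.254) did not, although their KO libraries lay below the WT libraries. Ciita, with 8 to 26.6 estimated counts in WT and 0 to 9 in KO, was too low to be tested. The count of 2 became 1 without KO mouse 301, since H2-Aa then had an adjusted p of 0.104.

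In LT-HSC, which had 2 mice per genotype, no class II or class I gene passed the threshold in the main fit. That fit used all LT-HSC libraries, filtered low counts and did not pair the mice, and 0.0792% of the 22733 genes tested passed in it. Cd74 was at 978 and 426 TPM in WT mice S245 and S269 and at 311 and 99.1 TPM in KO mice S244 and S270. H2-Aa was at 369 and 133 TPM in WT and 125 and 21.1 TPM in KO, and H2-Ab1 at 582 and 233 TPM in WT and 255 and 58.5 TPM in KO, where KO mouse S244 exceeded WT mouse S269. WT mouse S245 was highest and KO mouse S270 lowest for each of the 5 class II genes. Their log2 differences ran from -0.92 ± 0.63 (Ciita) to -1.55 ± 0.49 (Cd74), and 3 members had an unadjusted p under 0.05 (Cd74, H2-Eb1 and H2-Aa), as did 1180 genes or 5.19% of all. DESeq2 called none of the 10. The result depended on the fit: with the mice paired as a block, H2-Aa (-1.86 ± 0.34, adjusted p = 0.0331) and Cd74 (-1.66 ± 0.33, adjusted p = 0.0518) were called, and without the filter on low counts these 2 and H2-Eb1 were. The 12 markers of B cells, which carry class II, summed to 153 and 98.9 TPM in WT and to 462 and 77.2 TPM in KO, and none of the 8 tested was called. The part of such cells in the class II values was not tested. Leaving out a mouse leaves 1 library in its genotype, whose spread is then taken from the 2 libraries of the other genotype. In such fits without mouse S245 the class II differences shrank to between -0.44 ± 0.28 (H2-Eb1) and -1.0 ± 0.24 (Cd74), and Cd74 alone was called (adjusted p = 0.00575). Without mouse S269 the other 4 class II genes than Ciita were called, and without KO mouse S244 H2-Aa was.

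**Figure D3:**
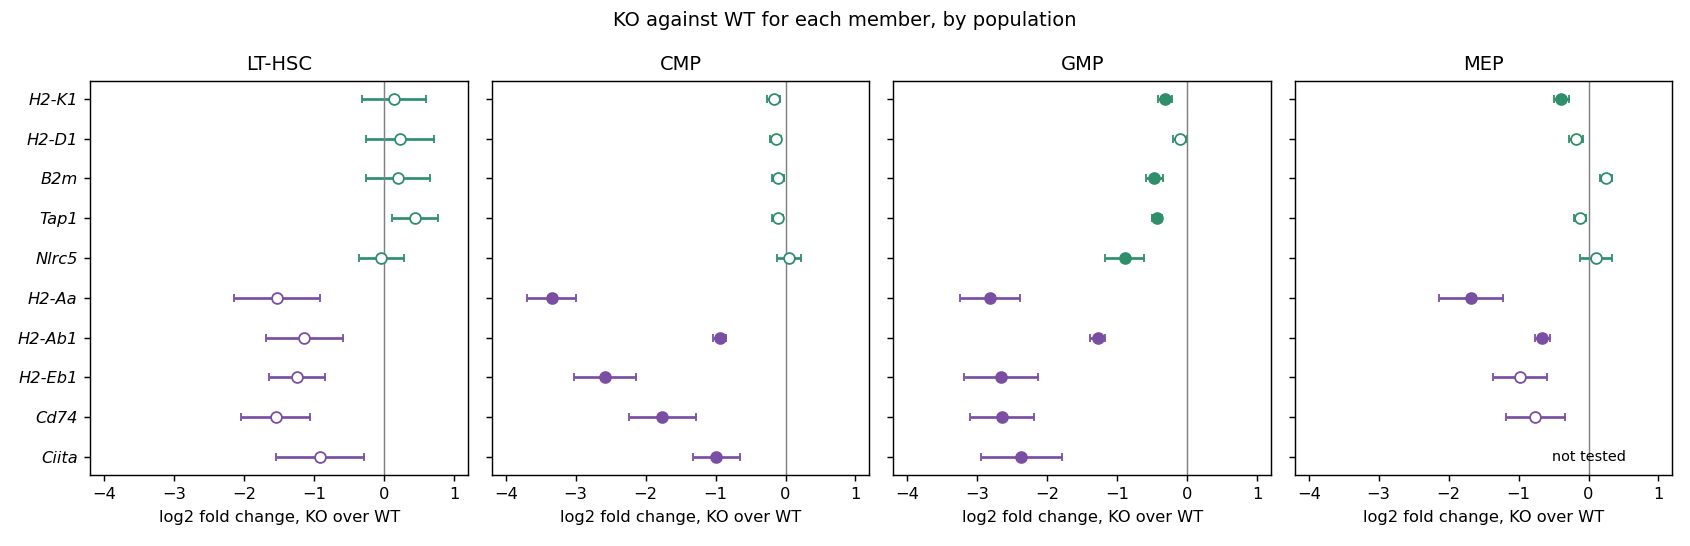
Log2 fold change of KO over WT (x axis; bars are SE) for each of the 10 genes in each population, from edgeR's quasi-likelihood test. Filled points have an adjusted p under 0.1; class I genes are green and class II genes purple. Class II points lie left of 0 in all 4 panels and 5 are filled in the CMP panel, 5 in that of GMP and 2 in that of MEP, while class I points lie between -0.89 and 0.44.

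Class I differences between genotypes were smaller, with a median over the 5 genes of -0.11 in CMP, -0.43 for GMP and -0.12 for MEP on the log2 scale, beside class II medians of -1.76, -2.65 and -0.87. In CMP none of the 5 passed the threshold: B2m was at 2471, 2451 and 2045 TPM in WT and 2064, 2413 and 2427 TPM in KO, and H2-K1 at 1272, 1185 and 1038 TPM in WT and 1009, 1137 and 1174 TPM in KO. The groups overlapped for all 5. The log2 differences ran from -0.17 ± 0.09 (H2-K1, adjusted p = 0.244) to 0.05 ± 0.17 (Nlrc5, adjusted p = 0.9), none of the 5 had an unadjusted p under 0.05, and DESeq2 called none. The approximate 95% interval for B2m ran from -0.29 to 0.07. All class I heavy chain genes summed gave -0.20 ± 0.09 in CMP (adjusted p = 0.175).

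In GMP 4 of the 5 class I genes were lower in KO, where 16.3% of all genes tested were. Nlrc5 was at 11.8, 18.6 and 9.62 TPM in WT and 5.57, 8.49 and 3.67 TPM in KO GMP, and fell 1.85-fold (-0.89 ± 0.28, adjusted p = 0.0429). B2m, at 1886, 1870 and 1547 TPM in WT and 1198, 1278 and 951 TPM in KO, fell 1.38-fold (-0.47 ± 0.12, adjusted p = 0.0167). Tap1, at 87.4, 92.6 and 77.7 TPM in WT and 58.9, 55.5 and 53.3 TPM in KO, fell 1.35-fold (-0.43 ± 0.07, adjusted p = 0.00157). None of these groups overlapped. H2-K1 fell 1.24-fold (-0.31 ± 0.10, adjusted p = 0.0504), from 879, 847 and 726 TPM to 626, 633 and 508 TPM, while H2-D1, at 606, 577 and 499 TPM in WT and 493, 502 and 408 TPM in KO, was not called (-0.10 ± 0.10, adjusted p = 0.526). The sum of all class I heavy chain genes gave -0.31 ± 0.10 (adjusted p = 0.0528). The B2m and Tap1 calls held without any single library, whereas Nlrc5 was not called by DESeq2 (adjusted p = 0.109) or without KO mouse 301, KO mouse 308 or WT mouse 305, and H2-K1 was not called without WT mouse 300, KO mouse 301 or KO mouse 308. With libraries scaled to their totals alone, the median of all GMP genes moved from -0.01 to -0.11 and the share of GMP calls that were lower from 48.2% to 67.8%, and B2m and Tap1 fell by 0.57 ± 0.11 and 0.53 ± 0.06 under that scaling.

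In MEP the class I chains parted, and 1 of the 5 genes was called, where 15.4% of all genes tested were lower and 14% higher. H2-K1 fell 1.31-fold in KO (-0.39 ± 0.11, adjusted p = 0.0393), from 624, 508 and 439 TPM to 389, 451 and 381 TPM, where KO mouse 304 exceeded WT mouse 309, although the normalised counts did not overlap. B2m was instead at 1352, 1335 and 1056 TPM in WT and 1461, 1686 and 1378 TPM in KO, higher in every KO library (0.25 ± 0.09, unadjusted p = 0.0295, adjusted p = 0.1, just over the threshold). That rise passed the threshold with median-of-ratios size factors, with library totals alone, without the filter on low counts and with DESeq2, but not in 1 fit of all 18 precursor libraries (adjusted p = 0.184). It passed without WT mouse 305 and missed without each of the other 5 mice. Tap1 (-0.12 ± 0.09), Nlrc5 (0.11 ± 0.23) and H2-D1 (-0.18 ± 0.10) were not called, and the H2-K1 call was lost without KO mouse 301 or KO mouse 308. All class I heavy chain genes summed were called lower in KO MEP (-0.34 ± 0.12, adjusted p = 0.0774). In LT-HSC the class I differences ran from -0.04 ± 0.32 (Nlrc5) to 0.44 ± 0.33 (Tap1), beside a median of -0.16 over all genes, and those of H2-K1 and B2m changed sign with library totals alone (-0.07 and -0.02).

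**Figure D4:**
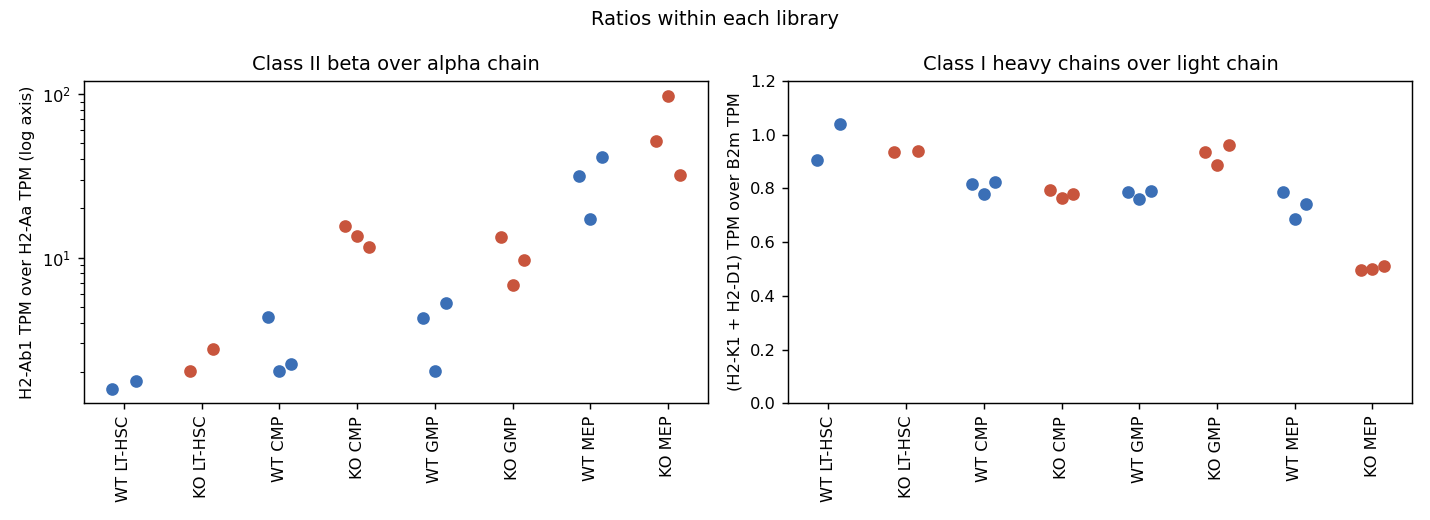
Ratios of TPM within each library, by genotype (WT blue, KO red) and population. Left, H2-Ab1 over H2-Aa (log axis), 2.01 to 4.34 in WT CMP and 11.6 to 15.7 in KO CMP; right, the sum of H2-K1 and H2-D1 over B2m (axis from 0), 0.687 to 0.787 in WT MEP and 0.498 to 0.512 in KO MEP.

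The balance between partner chains therefore differed within single libraries, where scaling cancels. The sum of H2-K1 and H2-D1 over B2m was 0.779 to 0.823 in WT CMP and 0.763 to 0.793 in KO CMP. In MEP it was 0.687 to 0.787 in WT and 0.498 to 0.512 in KO, and in GMP it went the other way, with 0.762 to 0.791 in WT and 0.888 to 0.962 in KO. H2-K1 over H2-D1 was lower in KO GMP (1.25 to 1.27) than in WT GMP (1.45 to 1.47), and 1.61 to 1.63 in KO CMP against 1.61 to 1.71 in WT CMP. In MEP this ratio was 1.15 to 1.17 in KO and 1.24 to 1.42 in WT. H2-Ab1 over H2-Aa was 2.01 to 4.34 in WT CMP and 11.6 to 15.7 in KO CMP, and 2.02 to 5.27 in WT GMP and 6.81 to 13.4 in KO GMP. In MEP the genotypes overlapped for this ratio, at 17.2 to 41 in WT and 32 to 97.8 in KO. These ranges are descriptions without a test.

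The difference of the KO effects between populations was tested directly, with the mouse as a block, on 18523 genes; these differences share libraries with each other. The 3 class I genes Nlrc5, Tap1 and B2m had a more negative KO effect in GMP than in CMP, where 10% of genes did: the differences were -0.94 ± 0.16 for Nlrc5 (adjusted p = 0.00124), -0.31 ± 0.10 for Tap1 (0.0443) and -0.36 ± 0.12 for B2m (0.0525). The same 3 had a more negative effect in GMP than in MEP, where 12.2% of genes did, with -1.02 ± 0.16 for Nlrc5 and -0.72 ± 0.12 for B2m ahead of -0.30 ± 0.10 for Tap1. B2m alone had a more positive effect in MEP than in CMP (0.36 ± 0.12, adjusted p = 0.0802), where 5.67% of genes did, and it was not called without any 1 of 5 of the 6 mice. Among class II genes H2-Ab1 differed between GMP and MEP (-0.61 ± 0.16, adjusted p = 0.0151), and no other class II difference was called with TMM scaling and the filter on low counts. The intervals were wide, with 0.59 ± 0.47 for H2-Aa in GMP less CMP, and the count of class II calls depended on the setting: for GMP less MEP it was 3 without the filter and 2 with library totals alone, and for MEP less CMP it was 2 without the filter. The sum of H2-Aa, H2-Ab1, H2-Eb1 and H2-Eb2 was called in both, at -0.91 ± 0.24 (adjusted p = 0.0152) for GMP less MEP and 0.68 ± 0.24 (adjusted p = 0.0988) for MEP less CMP. Without the mouse as a block, the class I differences of GMP from CMP were not called (adjusted p from 0.156 to 0.228), and of those from MEP only that of B2m was.

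**Figure D5:**
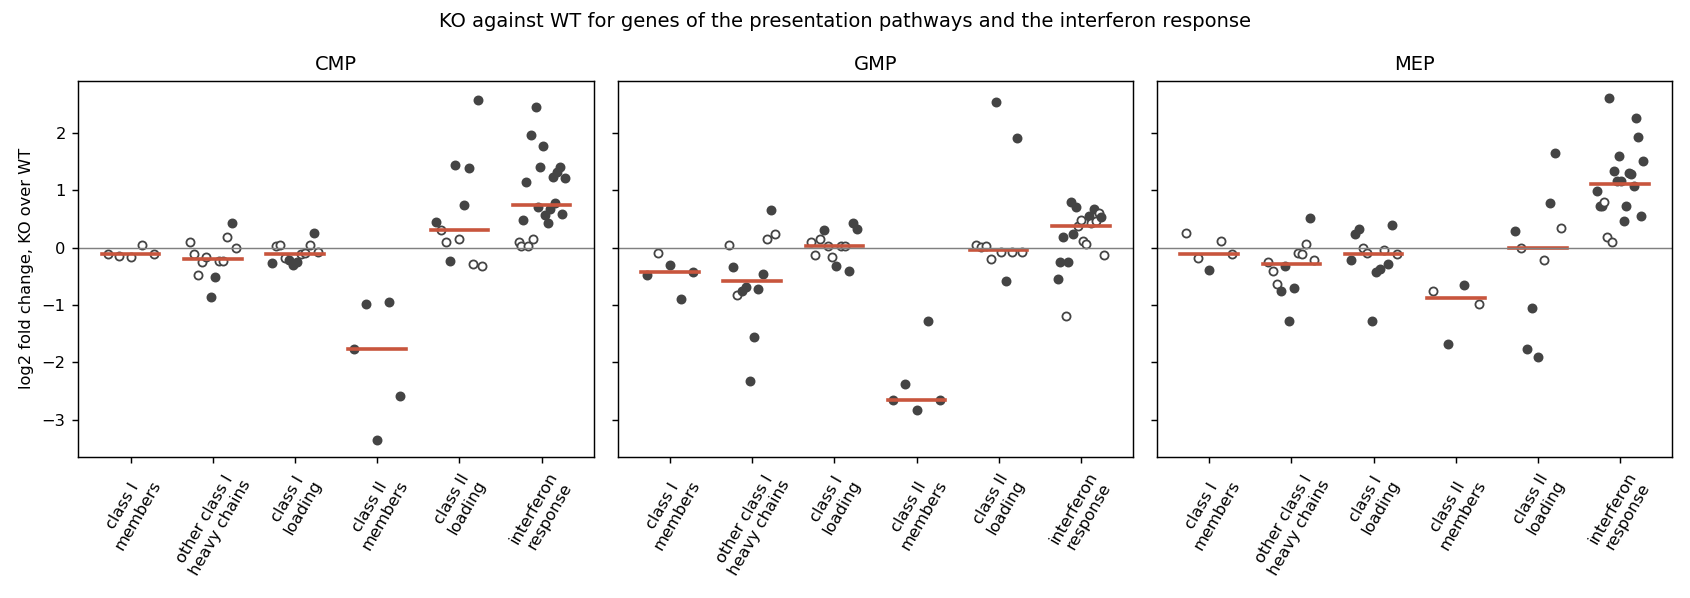
Log2 fold change of KO over WT (y axis) for each tested gene of 6 lists in CMP, GMP and MEP; filled points have an adjusted p under 0.1 and bars are list medians. Class II members lie lowest, at medians of -1.76, -2.65 and -0.87, class II loading genes scatter to both sides, and interferon response genes lie above 0 in CMP and MEP.

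Genes that load class II molecules moved in both directions. Among all genes tested, 10.6% were higher and 12.8% lower in KO CMP, 17.5% and 16.3% in KO GMP and 14% and 15.4% in KO MEP. Of 11 such genes (the H2-DM and H2-O chains, H2-Eb2 and endosomal proteases and their partners), 5 were higher and 1 lower in KO CMP, with a median of 0.30. H2-Ob, a chain of the H2-O molecule that restrains H2-DM, was at 41.5, 30.0 and 41.4 TPM in WT CMP and 111, 93.2 and 120 TPM in KO CMP (1.38 ± 0.13). Lgmn, an endosomal protease, was at 1.93, 5.10 and 5.04 TPM in WT and 18.2, 28.1 and 28.3 TPM in KO CMP (2.56 ± 0.35). Both groups were far apart, in the direction opposite to H2-Aa in the same libraries. H2-DMb2, a beta chain of the peptide exchanger H2-DM, was higher in KO CMP (1.43 ± 0.18) and GMP (2.53 ± 0.18). In GMP 2 of 10 tested were higher and 1 was lower, H2-Ob (-0.59 ± 0.17), and in MEP 3 of 9 were higher and 3 lower. H2-DMa, the alpha chain of the exchanger, was at 26.5, 18.5 and 20.6 TPM in WT MEP and 6.11, 7.18 and 7.04 TPM in KO MEP (-1.77 ± 0.15, adjusted p = 0.000168), a larger fall than that of H2-Ab1 there. The restraining chain H2-Oa also fell in MEP (-1.91 ± 0.37).

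Calls among other genes of the class I pathway stand beside 10.6% of all genes higher and 12.8% lower in KO CMP, 17.5% and 16.3% in KO GMP and 14% and 15.4% in KO MEP. Of 25 other class I heavy chain genes 12 were tested in each precursor, and 2 were lower and 1 higher in KO CMP, 7 and 1 in KO GMP and 4 and 1 in KO MEP. H2-Q6 was at 176, 127 and 128 TPM in WT CMP and 69.7, 78.0 and 106 TPM in KO CMP (-0.86 ± 0.17). In GMP it was at 57.9, 45.6 and 39.4 TPM in WT and 7.73, 10.5 and 7.24 TPM in KO (-2.33 ± 0.18, adjusted p = 3.24e-05), and in MEP it fell too (-1.27 ± 0.23). H2-Q7, which like H2-Q6 encodes a Qa-2 molecule, fell by 1.56 ± 0.25 in GMP. The H2-Q genes are near copies of each other, so reads may have been split among them, while H2-T24 was higher in KO in all 3 populations (0.42 ± 0.13, 0.65 ± 0.20 and 0.52 ± 0.15). Of 12 genes that supply and load class I peptides, KO CMP had 4 lower and 1 higher, KO GMP 2 and 3, and KO MEP 5 and 3. Psmb8, an immunoproteasome subunit, fell by 1.27 ± 0.16 in MEP, from 91.6 ± 22.3 TPM to 39.0 ± 5.86 TPM (SD, n = 3), and Tap2, the partner of Tap1, fell by 0.41 ± 0.05 in GMP.

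Factors that act on these promoters moved in both directions. Rfx5, the DNA-binding subunit of RFX, was at 33.2, 35.0 and 35.3 TPM in WT CMP and 31.5, 29.1 and 27.2 TPM in KO CMP (-0.30 ± 0.05), and fell by 0.65 ± 0.07 in MEP, while its partner Rfxank was higher in KO CMP (0.52 ± 0.17) and GMP (0.70 ± 0.18). Irf8, an interferon regulatory factor needed for monocytes and dendritic cells, was at 104, 194 and 239 TPM in WT CMP and 59.4, 72.8 and 83.4 TPM in KO CMP (-1.45 ± 0.28), and fell by 1.37 ± 0.26 in GMP. Spi1, which encodes the myeloid factor PU.1, was higher in KO GMP (0.60 ± 0.07). In all, CMP had 2 of 18 higher and 4 lower, GMP 3 and 3, and MEP 2 and 1, with medians of 0.02, 0.04 and -0.02. The shares of all genes tested that were higher and lower were 10.6% and 12.8% for CMP, 17.5% and 16.3% for GMP, and 14% and 15.4% for MEP.

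Interferon response genes went the other way from the class II genes in CMP and MEP. Of 20 such genes 16 were higher and none lower in KO CMP (median 0.74), where 10.6% of all genes tested were higher, and 17 of 20 were higher and none lower in KO MEP (median 1.11), where 14% were higher. In GMP 7 of 19 tested were higher and 3 lower (median 0.38), where 17.5% of all genes were higher and 16.3% lower. Irf7, the interferon regulatory factor that amplifies type I interferon, rose by 1.76 ± 0.26 in CMP, from 10.9 ± 4.11 TPM to 38.8 ± 5.33 TPM (SD, n = 3), in the libraries in which H2-Aa was 10.1-fold lower. Oasl2 rose by 2.26 ± 0.36 in MEP and Igtp, an interferon gamma-induced GTPase, by 0.70 ± 0.11 in GMP.

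Markers of cells that carry class II moved in both directions. The counts of markers called stand beside 10.6% of all genes tested that were higher and 12.8% lower in KO CMP, 17.5% and 16.3% in KO GMP and 14% and 15.4% in KO MEP. Clec9a, a marker of dendritic cells and their precursors, was at 1.48, 3.83 and 9.36 TPM in WT CMP and 0.667, 1.02 and 0.710 TPM in KO CMP (-2.76 ± 0.51). In GMP it fell by 2.63 ± 0.56. There it did not meet the full rule for naming genes, a called change, groups apart and a mean of at least 1 TPM. Other dendritic cell markers went the other way in CMP: Itgax was at 1.93, 2.29 and 2.61 TPM in WT and 33.3, 13.8 and 36.7 TPM in KO (3.43 ± 0.35), and Flt3 rose by 0.94 ± 0.15. Of 12 dendritic cell markers, KO CMP had 4 higher and 1 lower, KO GMP 2 and 2, and KO MEP 1 and 1, and their sum was 88.2 to 119 TPM in WT CMP and 162 to 260 TPM in KO CMP. The sum was 17.0 to 17.5 TPM in WT GMP and 26.7 to 30.97 TPM in KO GMP, and 28.9 to 34.4 TPM and 28.7 to 35.6 TPM in WT and KO MEP. The monocyte marker Ly6c2 fell by 2.86 ± 0.24 in CMP, from 74.6, 137 and 136 TPM to 14.7, 14.5 and 18.4 TPM. The 12 macrophage and monocyte markers summed to 149 to 276 TPM in WT and 102 to 133 TPM in KO CMP, and to 1195 to 1431 TPM in WT and 877 to 1070 TPM in KO GMP. Most of the sum in GMP was Ly6c2, at 1071.6 to 1297.8 TPM in WT and 766.5 to 942.4 TPM in KO. The 12 B cell markers summed to 137 to 234 TPM in WT and 219 to 422 TPM in KO CMP and to 80.8 to 117 TPM and 88.6 to 101 TPM in GMP. T and NK cell markers (12) summed to 174 to 251 TPM in WT and 134 to 147 TPM in KO CMP and to 654 to 874 TPM and 950 to 1111 TPM in GMP. Nkg7 alone made up most of these sums, at 643 to 859 TPM in WT GMP and 945 to 1106 TPM in KO GMP. Its rise in KO GMP was 0.62 ± 0.10, whereas Gzmb fell there by 1.53 ± 0.25, so the sum does not describe the list as a whole. Other lineages moved as well: in KO CMP 7 of 10 neutrophil markers were lower and 9 of 10 erythroid markers higher, and in KO GMP 7 of 10 neutrophil markers were higher and 6 of 10 stem cell markers lower. Neutrophil sums were 4208 to 4892 TPM in WT and 1746 to 2681 TPM in KO CMP, and erythroid sums were 1285 to 1408 TPM and 1975 to 2347 TPM. In KO MEP 6 of 10 erythroid markers were higher and 1 was lower. Among macrophage and monocyte markers KO CMP had 1 higher and 2 lower, KO GMP 2 and 4 and KO MEP 3 and 1, among B cell markers 1 and 2, 0 and 0 and 0 and 1, and among T and NK cell markers 0 and 3, 2 and 2 and 0 and 2. No marker was at 0 in all libraries of a CMP or GMP group. In LT-HSC no gene of any of these lists was called. The part of any of these cells in the class I and class II differences was not tested.

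Among all genes with a mean of at least 1 TPM over the 18 precursor libraries, those whose log2(TPM + 1) followed the class II mean most closely were Acvr1 (Pearson r = 0.955), Ifi209 (0.949), Padi4 (0.949), Kank2 (0.947) and Lpxn (0.942). For the class I mean they were Gm43778 (0.964), Mov10 (0.962), Slc38a6 (0.961), Rab3gap1 (0.960) and Zbtb9 (0.959). These values describe 18 libraries from 6 mice that share population and genotype, and the closest of 13757 genes were picked. Among mice of 1 genotype, WT mouse 305 was highest for H2-Aa, Cd74, H2-Eb1 and Ciita in both CMP and GMP, while H2-Ab1 was highest in mouse 300 in GMP.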

How the data were processed

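RNA from sorted cells was sequenced as paired reads of 100 bases. The authors estimated transcript abundance with kallisto against Ensembl transcripts of mm10 (GRCm38) and deposited, per the file headers, an estimated count and a TPM (abundance relative to transcript length and library total) for each of 115088 transcripts in 22 libraries. Of these, 114200 (99.2%) were matched by transcript ID to 47311 genes of GENCODE vM21, and 0.233 to 0.363% of a library's counts were left out as unmatched. Estimated counts were summed over the transcripts of a gene, rounded to whole numbers and tested with edgeR 4.0.16 (R 4.3.3) by the quasi-likelihood F test, with TMM scaling, the filter filterByExpr and Benjamini-Hochberg adjustment over all genes tested; a gene was called at an adjusted p under 0.1. Standard errors are the log2 fold change over the root of F, and 95% intervals are normal approximations from them. Such intervals are narrower than the F test implies in groups this small. Levels are TPM.

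KO and WT were compared within each population without a block, and WT populations and the differences of KO effects in fits of the precursors with the mouse as a block, since the labels give each mouse's number. Samples with the same mouse number deviated together only weakly (r from -0.06 to 0.22). Mice are separate animals by their labels. The alternatives tried were size factors by median of ratios, all genes kept, DESeq2 1.42.0, an offset for transcript length, the mice paired or not, near-identical copies summed, 1 fit of all 18 precursor libraries and each library left out. Library totals alone were added as a scaling after the data were seen. The edgeR fit was tested on simulated data.

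The members and lists were chosen with earlier results of these data known. Named were all members, up to 3 genes of each list with the largest called change, groups apart and a mean of at least 1 TPM, and the 5 genes most like each class. Flt3, H2-T24, Clec9a and Ly6c2 in GMP, H2-Oa and Rfx5 in CMP and the pairs of chains in the ratios were chosen after their values were seen. Depth sets the counting error of low genes such as Ciita. Promoter windows are from RefSeq (GRCm38.p6). Values of some marker genes are not reported here.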

Additional observations from a re-analysis of the deposited data

Results flagged for a closer look

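The results listed here were picked out because a test of the difference itself, between the KO effects in 2 populations, passed an adjusted p of 0.1 with edgeR's quasi-likelihood test and the mouse as a block. Nlrc5 had a KO effect lower by 0.94 ± 0.16 on the log2 scale in GMP than in CMP (-0.94, adjusted p = 0.00124) and lower by 1.02 ± 0.16 in GMP than in MEP (-1.02, adjusted p = 0.00051). The differences for B2m were -0.36 ± 0.12 for GMP less CMP (adjusted p = 0.0525), -0.72 ± 0.12 for GMP less MEP (0.000649) and 0.36 ± 0.12 for MEP less CMP (0.0802). Those for Tap1 were -0.31 ± 0.10 for GMP less CMP (0.0443) and -0.30 ± 0.10 for GMP less MEP (0.0428). H2-Ab1 was the only class II gene among them, at -0.61 ± 0.16 for GMP less MEP (0.0151). Groups of 2 or 3 libraries are too small for a test of single outlying libraries.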

How the results depend on the processing

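The members' log2 differences were recomputed under each alternative. Under alternatives other than leaving out a library, 663 kept their direction and side of the threshold, 38 newly passed it, 9 no longer passed it and 12 changed sign. With a library left out, 412 kept both, 19 newly passed it, 31 no longer passed it and 22 changed sign. The counts of members called are not part of these tallies. A library left out of LT-HSC leaves 1 in its genotype, assumed to vary like the 2 of the other. In LT-HSC the count of class II genes called was 0, but 3 without the filter, 2 with the mice paired and 0 to 4 with a library left out, while 18 genes in all were called against 286 without the filter, 248 with DESeq2, 115 with the replicate block and 50 to 2519 with a library left out. Leaving out a library gave 3 to 5 class II calls in CMP, 2 to 4 class I calls in GMP, 0 to 2 class I calls and 1 to 2 class II calls in MEP. The class I count in MEP was 2, in place of 1, with median-of-ratios size factors, library totals alone, no filter, DESeq2 and the replicate block. The pairing of mice across genotypes came from the column order of a supplementary table, not from labels, with r of -0.00 to 0.24 between paired mice, and it changed no other count of members called.

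Between WT GMP and CMP the class II count of 0 became 3 with library totals alone, 2 without the filter, 2 with DESeq2 and 0 to 3 with a mouse left out. For the KO effect in GMP less CMP the class I count of 3 became 0 with no replicate block and 1 to 3 with a mouse left out, and the class II count of 0 became 1 with library totals alone. For MEP less CMP the class I count of 1 became 0 with no replicate block and 0 to 1 with a mouse left out, and the class II count of 0 became 2 without the filter, 2 with DESeq2 and 0 to 2 with a mouse left out. For GMP less MEP the class I count of 3 became 1 with no replicate block, and the class II count of 1 became 2 with library totals alone, 3 without the filter, 2 with DESeq2 and 1 to 3 with a mouse left out.

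Signs that changed belonged to differences not called. Library totals alone gave -0.07 for H2-K1 and -0.02 for B2m in LT-HSC, -0.12 for H2-Eb1 between WT GMP and CMP, -0.09 for H2-D1 in GMP less CMP, and -0.04 for H2-K1 and -0.03 for H2-D1 in GMP less MEP. H2-Eb1 between WT GMP and CMP was -0.01 with the length offset and -0.27 with copies summed. Copies summed gave -0.10 for H2-D1 and -0.23 for H2-Aa and H2-Eb1 in GMP less CMP, where no replicate block gave -0.08 for H2-Eb1. With a library left out, Nlrc5 ranged from -0.45 to 0.33 in LT-HSC, -0.12 to 0.21 in CMP and -0.10 to 0.31 in MEP. Between WT GMP and CMP, H2-Eb1 ranged from -0.31 to 0.51 and Cd74 from -0.64 to 0.57. In GMP less CMP, H2-K1 ranged from -0.25 to 0.03, H2-D1 from -0.06 to 0.20 and H2-Eb1 from -0.37 to 0.50. In MEP less CMP, H2-D1 ranged from -0.10 to 0.05, Tap1 from -0.06 to 0.05, Nlrc5 from -0.01 to 0.18 and Ciita from -1.70 to 0.15. In GMP less MEP, H2-K1 ranged from -0.01 to 0.16 and Ciita from -1.23 to 0.19. The cause of these changes was not tested.

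Scaling moved the balance of all genes where GMP was compared. With library totals alone the calls were 1909 higher and 4026 lower for KO GMP (2874 and 2676 with TMM), 2470 and 6411 for WT GMP against CMP (3677 and 4236), 1280 and 3459 for GMP less CMP (2026 and 1861) and 1896 and 3481 for GMP less MEP (2697 and 2260). Ciita, with at most 26.6 estimated counts in MEP, could not be judged there at this depth.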
